A study of Mus musculus with 21 samples.

Results

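Aged primary brain microglia labelled Trem1-/- were compared with aged wild-type microglia by RNA sequencing. The comparison used 6 of the 21 libraries of the series, 3 labelled wild type and aged and 3 labelled Trem1-/- and aged, all from mouse. Of 54532 genes listed, 16086 were tested, those whose normalized count averaged 10 or more over the 12 libraries of the aging experiment. That experiment also holds 3 young wild-type and 3 young Trem1-/- libraries. The young groups share the fit and enter 1 test below, of whether the difference between genotypes depends on age. The labels name no other allele or agent, and give no age in months, no sex, no background strain and no way of isolating the cells. They do not say how the Trem1 allele was disrupted, whether animals were pooled, or whether replicates stand for different mice. P-values therefore measure the spread between these libraries, which may be technical.

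TREM1 is a receptor of the immunoglobulin superfamily that is found mainly on neutrophils and monocytes. It has no signalling tail of its own and pairs with the adaptor DAP12, encoded by Tyrobp. DAP12 recruits the kinase SYK, and signals through phospholipase C gamma and CARD9 then amplify NF-kB driven cytokine production. Microglia express the related receptor TREM2, which uses the same adaptor and is tied to phagocytosis and lipid handling.

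Library depth, from whole reads recovered from the normalized values, was 12822804 to 19411434 reads in aged wild type and 8600878 to 14163297 in aged Trem1-/-. Microglial identity was clear in all 6 libraries: the purinergic receptor gene P2ry12 lay between 24750 and 31743 normalized counts and Tmem119, a microglial surface protein gene, between 15207 and 21239. Markers of other cells were also present. The 19 neutrophil markers summed to 87609 to 159151 in aged wild type and 72704 to 169195 in aged Trem1-/-. The listed monocyte markers summed to 21992 to 40232 against 20460 to 25772. Ependyma and choroid plexus markers summed to 46168 to 81146 against 55008 to 67555, and B-cell markers to 1706 to 3490 against 2292 to 2921. T and NK cell markers summed to 74.4 to 132 against 49.8 to 157, although the T-cell receptor genes Trac, Trbc1 and Trbc2 were at 0. Trem1-/- replicates 2 and 3 stood apart from the rest and from each other: over all genes the correlation of log2 values was 0.861 between replicates 2 and 3 and 0.892 to 0.900 between either and replicate 1. Trem1-/- replicate 1 correlated at 0.942 and 0.945 with wild-type replicates 2 and 3.

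Trem1 itself did not separate the groups. The gene (ENSMUSG00000042265.13, GRCm38 chr17:48232768-48246924, plus strand) had 269, 188 and 237 normalized counts in aged wild-type replicates 1, 2 and 3. The libraries labelled aged Trem1-/- had 124, 124 and 244. Replicates 1 and 2 of the latter lay below every wild-type library, while replicate 3 lay above 2 of the 3, so the groups overlapped. Behind these values stood 242, 274 and 295 reads in wild type and 133, 100 and 162 reads in the libraries labelled Trem1-/-. The means were 231 ± 40.8 and 164 ± 68.9 (SD, n = 3 each). The difference of mean log2(normalized count + 1) was -0.55 ± 0.45 (standard error), with an adjusted p of 0.743 by limma (trend and robust, Benjamini-Hochberg over 16086 genes). Leaving out 1 aged library at a time gave differences between -0.87, without Trem1-/- replicate 3, and -0.39, without replicate 1 or 2. Gene-level reads do not show which exons were covered or whether a transcript could be translated, and directions below refer to the libraries as labelled.

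**Figure D1:**
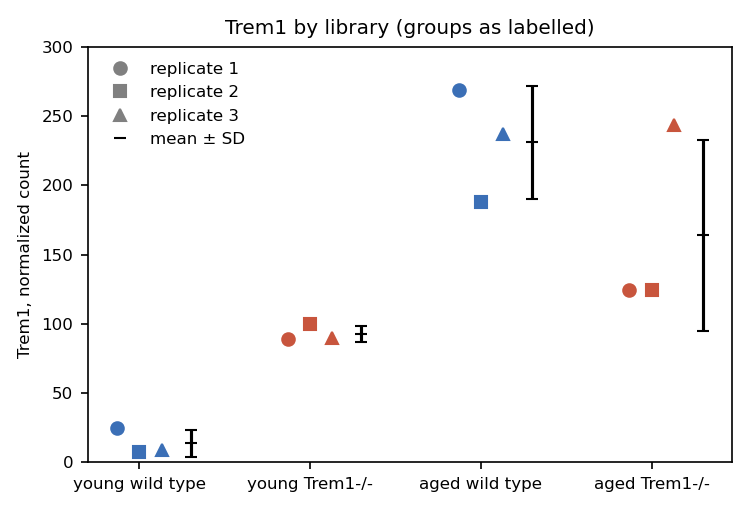
Normalized count of Trem1 (vertical axis) in each of the 12 libraries of the aging experiment, by labelled group, with mean ± SD (n = 3) beside the points. In the aged groups the libraries labelled Trem1-/- lie at 124, 124 and 244 against 188 to 269 in wild type, and in the young groups they lie above wild type.

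Across the transcriptome, no gene of 16086 passed an adjusted p of 0.05 by limma (0%), and the smallest adjusted p was 0.292. An unadjusted p under 0.05 was found for 1545 genes (9.6%), 794 lower (4.94%) and 751 higher (4.67%) in the libraries labelled Trem1-/-. The edgeR quasi-likelihood test on recovered reads also called 0 genes, with 1496 at an unadjusted p under 0.05. DESeq2 on the same reads called 30 of 16075 genes (0.187%), 19 higher (0.118%) and 11 lower (0.0684%). All 30 had groups that did not overlap and the same sign by limma, but they were selected on the same libraries, so this is no separate support. By limma 15 genes passed without aged wild-type replicate 2 and 5 without aged Trem1-/- replicate 1, so the count of 0 depends on which libraries enter. The median standard error of a gene's log2 difference was 0.32, with quartiles of 0.18 and 0.72.

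The members of gene groups are described below by whether the 3 libraries of one group all lie above or below those of the other. Over all tested genes that held for 12.2%, 6.25% with the libraries labelled Trem1-/- lower and 5.91% with them higher. A log2 difference below 0 was found for 51.9% of genes and one above 0 for 48.1%, and the median was -0.02. None of the genes named below passed the limma threshold for the aged comparison, so "lower" and "higher" state the measured means only.

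Among the genes with the smallest p and higher values in the libraries labelled Trem1-/-, Arhgap22, encoding a GTPase-activating protein, had 678, 623 and 677 normalized counts in wild type. It had 905, 1256 and 1288 in the libraries labelled Trem1-/-, a log2 difference of 0.78 ± 0.16 (limma adjusted p = 0.292, DESeq2 adjusted p = 0.0083). Every Trem1-/- library was above every wild-type library. Angpt2 (chr8:18690263-18741562), encoding a ligand of the endothelial receptor TIE2, went from 7.78, 24.7 and 20.1 to 86.8, 117 and 79.7, or 2.49 ± 0.55. Aldh1l2 (chr10:83487450-83534140), a mitochondrial enzyme of folate-dependent one-carbon metabolism, had 61.1, 65.8 and 69.9 against 188, 187 and 177. Its groups were far apart relative to their spread, and the log2 difference was 1.47 ± 0.33 (DESeq2 adjusted p = 0.0082). Chka, choline kinase alpha of phosphatidylcholine synthesis, had 289, 346 and 373 against 498, 623 and 585 (0.76 ± 0.18). Gfm2, a mitochondrial translation factor of ribosome recycling, was higher by 0.61 ± 0.14. The tetratricopeptide gene Ttc14 differed by 0.55 ± 0.12 and the zinc-finger gene Zcchc7 by 0.56 ± 0.13. The remaining leading genes were nuclear noncoding RNAs: Firre, with 613, 665 and 568 against 935, 1006 and 875, and Malat1, with 61972, 81935 and 66771 against 91531, 128002 and 105501. Firre differed by 0.61 ± 0.15 and Malat1, named through its DESeq2 adjusted p of 0.009, by 0.62 ± 0.15.

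The genes with the smallest p and lower values were led by Rpl38 (chr11:114668524-114672331), encoding a protein of the large ribosomal subunit. It had 571, 281 and 346 normalized counts in wild type and 120, 157 and 156 in the libraries labelled Trem1-/-, a log2 difference of -1.41 ± 0.30 (limma adjusted p = 0.292, DESeq2 adjusted p = 0.0082). Wild-type replicate 1 was the highest library, but the other 2 also exceeded all Trem1-/- libraries. Snx1, a retromer-associated sorting nexin, had 1184, 920 and 1028 against 598, 651 and 708 (-0.67 ± 0.15). Slc12a7, the potassium-chloride cotransporter KCC4, had 1501, 757 and 748 against 601, 385 and 480 (-0.98 ± 0.22). In both genes all 3 Trem1-/- libraries were below wild type. The other lower genes had smaller differences. Msn, the cortical actin linker moesin, had 20170, 16910 and 16874 against 15400, 12761 and 13423 (-0.38 ± 0.09). Ap2a2 of the clathrin adaptor AP-2 differed by -0.47 ± 0.11 and Rrbp1, the ribosome-binding protein of the endoplasmic reticulum, by -0.34 ± 0.08. Ppm1g, a nuclear protein phosphatase, differed by -0.49 ± 0.12. The protease inhibitor gene Spint1, named through DESeq2 (adjusted p = 0.028), had 2838, 1489 and 1722 against 1182, 1137 and 1066 (-0.78 ± 0.20). Without wild-type replicate 1 the difference was -0.51 for Spint1 and -0.65 for Slc12a7.

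**Figure D2:**
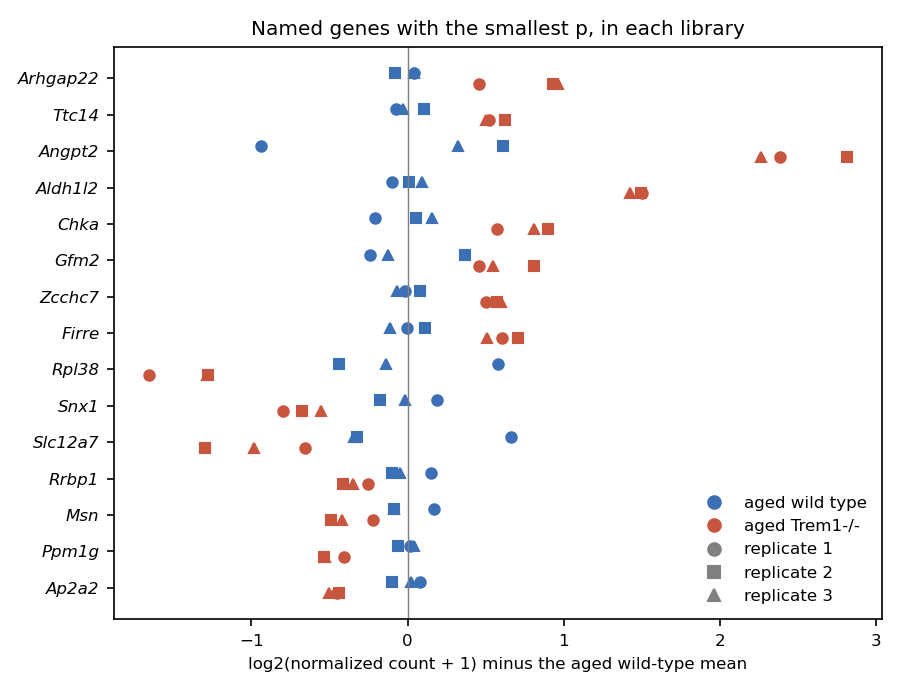
Log2(normalized count + 1) of the genes named above for the smallest p in either direction, in each of the 6 aged libraries, relative to the aged wild-type mean of that gene (horizontal axis). In every gene shown the 3 libraries labelled Trem1-/- lie on one side of the 3 wild-type libraries, from Angpt2 at 2.49 to Rpl38 at -1.41. The genes were chosen by their p, so the separation is how they were selected.

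A few genes called by DESeq2 were outside the naming rule and are given because of their zeros or their known function, after their values were seen. Prok2, encoding the chemotactic peptide prokineticin 2, had 98.9, 17.8 and 24.1 normalized counts in wild type and was at 0 in all 3 libraries labelled Trem1-/-. Counting each of those zeros as 3 reads, it was at least 12.7-fold lower, or at least 5.69-fold without wild-type replicate 1. Khdc3, a KH-domain gene best known from oocytes, had 21.1, 19.2 and 21.7 against 0 in all 3, at least 5.61-fold lower. The transcription factor gene Stat3, downstream of the interleukin-6 family, had 6253, 3230 and 4109 against 2855, 2922 and 2711 (DESeq2 adjusted p = 0.048). Wild-type replicate 1 was the highest for Stat3, and without it the difference moved from -0.63 to -0.37. Mmp19, a matrix metalloproteinase gene, had 318, 65.8 and 116 against 5.60, 39.8 and 45.1. Opposite to these, Poln, a DNA polymerase gene, had 1.11, 0.686 and 0 against 7.47, 63.5 and 61.7.

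The direction of the difference varied with the kind of gene and with its level. Of 12731 protein-coding genes 43.0% were above 0, with a median of -0.05. The share was 79.0% of 790 genes that the annotation marks as awaiting experimental evidence (TEC), with a median of 0.72. It was 73.6% of 554 antisense genes (median 0.51), 64.9% of 407 lincRNA genes (0.27) and 81.7% of 109 sense-intronic genes (0.78). Groups that did not overlap, with the libraries labelled Trem1-/- higher, were found for 21 sense-intronic genes (19.3%) and with them lower for 1. The libraries did not split cleanly by label: the median deviation of sense-intronic genes from their wild-type mean was -0.34, 0.59 and -0.11 in wild type and 0.43, 1.39 and 0.97 in the libraries labelled Trem1-/-. Wild-type replicate 2 thus lay above Trem1-/- replicate 1, and Trem1-/- replicates 2 and 3 were highest. Antisense and sense-intronic genes lie opposite or inside other genes. Whether reads were counted by strand is not given in the sources used here, so the reads of those 2 classes cannot be told apart from those of the overlapping genes. TEC genes held 0.191% to 0.566% of all counts in these libraries. LincRNA genes held 4.04% to 5.47% in wild type and 3.51% to 4.69% in the libraries labelled Trem1-/-, so their share did not rise with their median. Of the 19 genes that DESeq2 called higher, 9 were protein coding, while all 11 called lower were.

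Protein-coding genes of high level were more often lower. Of 388 with a mean of at least 5000 normalized counts, 79.4% were below 0, the median was -0.13, and in 78 (20.1%) the libraries labelled Trem1-/- were all lower. In 2 of the 388 they were all higher (0.515%). Among 2522 genes with means from 1000 to 5000, 69.9% were below 0 and 11.97% were lower without overlap. Among 2238 with means from 10 to 50, those shares were 50.3% and 3.98%. Gene lists of abundant transcripts have to be read against these figures rather than against 6.25%. Under quantile normalization differences of abundant genes were smaller, -0.21 for Msn, -0.21 for Rrbp1 and -0.14 for Psap, the saposin precursor, at -0.34 otherwise. Depth moved with the label, since the 2 shallowest libraries were Trem1-/- replicates 2 and 3. Of the 12 libraries, Trem1-/- replicate 3 had the most genes with a count above 0, 24877, and replicate 2 the fewest, 18749. The part of depth or of genes detected in these patterns was not tested. Gene types and level ranges were chosen after the data were seen.

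**Figure D3:**
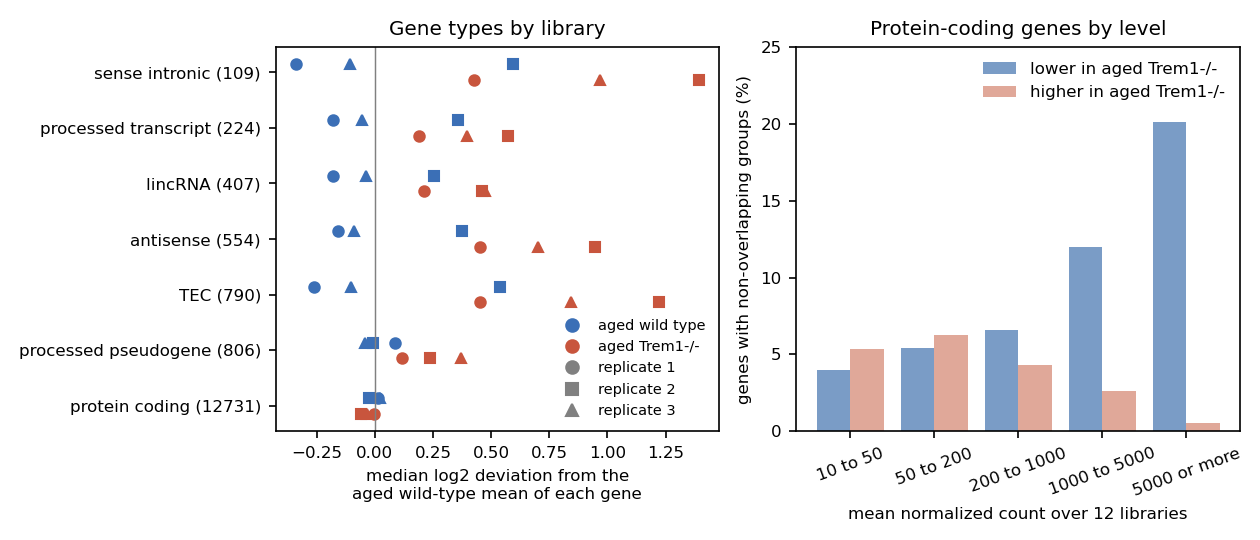
Left, median log2 deviation from the aged wild-type mean of each gene (horizontal axis) for 7 gene types in each of the 6 aged libraries, with the number of genes tested in brackets. Right, percent of protein-coding genes whose aged groups did not overlap (vertical axis), lower or higher in the libraries labelled Trem1-/-, by mean normalized count over 12 libraries. Noncoding types are highest in Trem1-/- replicates 2 and 3, and the share of lower genes goes from 3.98% at means of 10 to 50 to 20.1% at means of at least 5000.

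Gene lists were drawn up for microglial states, signalling, metabolism and protein synthesis, 32 in all, and 12 more for markers of cell types. Of the 32, 31 had a median log2 difference below 0, beside -0.02 over all genes and -0.05 over protein-coding genes, and no member of any list passed the limma threshold. List medians are descriptions. In bulk samples, fewer cells of a type and less RNA per cell cannot be told apart.

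The 20 genes of TREM receptors and DAP12 signalling had a median of -0.12. Lower without overlap were 2 of them (against 6.25% of all genes), and 1 was higher (against 5.91%). The list median was -0.03 under quantile normalization, -0.05 without wild-type replicate 3 and -0.06 without Trem1-/- replicate 3. Plcg2, phospholipase C gamma 2, had 8178, 6962 and 7677 normalized counts against 6894, 6230 and 6462 (-0.22 ± 0.09). Vav1, a guanine nucleotide exchange factor, had 9650, 8905 and 8881 against 8173, 8750 and 8189 (-0.13 ± 0.08). Malt1, the protease partner of CARD9 and BCL10, had 588, 801 and 859 against 893, 864 and 946 (0.28 ± 0.16), or 0.12 without wild-type replicate 1. The kinase gene Syk (-0.18 ± 0.11) and Card9 (-0.22 ± 0.14) overlapped between groups. The adaptor Tyrobp had 3583, 2428 and 2879 against 2930, 2826 and 3144, a difference of 0.02 ± 0.13, and Trem2 had 5551, 5638 and 4826 against 5418, 4785 and 6653, a difference of 0.06 ± 0.11. For both, the difference was smaller than its standard error.

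Homeostatic microglial genes had a median close to that of protein-coding genes as a whole, -0.05. For protein-coding genes with means of at least 5000 the median was -0.13, and 20.1% were lower without overlap. The 24 homeostatic genes had a median of -0.06, with 2 lower without overlap and 0 higher. Their median turned to 0.03 under quantile normalization. It ranged from -0.15 without Trem1-/- replicate 3 to -0.01 without wild-type replicate 3, and was -0.03 and -0.02 without Trem1-/- replicates 1 and 2. Csf1r, the receptor for the survival factors CSF1 and interleukin-34, had 102448, 100277 and 102128 against 92278, 80664 and 89682 (-0.22 ± 0.07, adjusted p = 0.367). The difference was 0 under quantile normalization, where a gene's value is set by its rank in each library. A difference in level without a change of rank is lost there. The fructose transporter gene Slc2a5 had 6513, 6348 and 6531 against 5646, 5176 and 5563 (-0.24 ± 0.10). P2ry12, which steers microglial processes to released nucleotides, differed by 0.01 ± 0.09, and its groups overlapped.

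Disease-associated microglia are a state first described around amyloid plaques, with induced lipid and lysosomal genes. Of 28 of its genes, 26 were below 0 and 4 were lower without overlap, with a median of -0.24. Leaving out single libraries gave medians between -0.32 and -0.18. Of protein-coding genes with means from 1000 to 5000, 69.9% were below 0 and 11.97% were lower without overlap. For means of at least 5000 those shares were 79.4% and 20.1%. Itgax, the integrin CD11c, had 433, 333 and 507 normalized counts against 301, 188 and 317 (-0.67 ± 0.31). Csf1 had 592, 529 and 590 against 442, 477 and 329 (-0.47 ± 0.23). Gpnmb, a glycoprotein of lipid-laden macrophages, was low everywhere, with 32.2, 25.4 and 7.23 against 6.54, 6.22 and 0. Apoe, the main lipoprotein of microglia, had 17832, 18208 and 22041 against 17504, 15337 and 16815 (-0.22 ± 0.14). Apoe was at -0.12 without wild-type replicate 3, Itgax at -0.44 without Trem1-/- replicate 2 and Csf1 at -0.31 without Trem1-/- replicate 3. The closest libraries of the groups, at 17832 and 17504, lay nearer to each other than to the rest of their groups.

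Inflammatory cytokine and NF-kB genes included several whose groups did not overlap. Of 28 tested members, of 32 listed, 21 were below 0. Lower without overlap were 7 (against 6.25% of all genes), and 1 was higher. The list median of -0.20 became -0.11 without Trem1-/- replicate 3. Tnf, the cytokine tumour necrosis factor, had 273, 136 and 186 normalized counts in wild type and 126, 42.3 and 37.6 in the libraries labelled Trem1-/-. The groups came close, at 136 and 126, and the log2 difference was -1.68 ± 0.45 (adjusted p = 0.367). The adhesion molecule gene Icam1 had 2552, 2156 and 1998 against 1803, 1578 and 1432 (-0.48 ± 0.13). Cd14, the co-receptor for lipopolysaccharide, had 3197, 2233 and 2505 against 2219, 1868 and 1840 (-0.41 ± 0.12). Bcl3, an atypical NF-kB inhibitor family member, had 828, 264 and 353 against 157, 236 and 153 (-1.25 ± 0.43). Rela, the NF-kB subunit p65, had 2726, 1921 and 2507 against 1831, 1887 and 1853 (-0.35 ± 0.13). In Cd14, Bcl3 and Rela the lowest wild-type library lay close to the highest Trem1-/- library. Without wild-type replicate 1 the differences were -0.26 for Cd14 and -0.77 for Bcl3.

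Within the interleukin-1 family and inflammasome, 12 of 18 genes were below 0, 3 were lower without overlap (against 6.25% of all genes) and 1 was higher. Il1a, the cytokine interleukin-1 alpha, had 827, 826 and 758 against 699, 443 and 537 (-0.55 ± 0.18), and Il1rap, the accessory chain of its receptor, 488, 229 and 384 against 209, 149 and 212 (-0.89 ± 0.28). Nlrp1b, an inflammasome sensor, was higher, with 499, 908 and 741 against 932, 1553 and 999 (0.70 ± 0.26). Of 16 chemokine genes tested, of 18, 15 were below 0 and 3 were lower without overlap (against the same 6.25%). Their median of -0.86 was carried by low genes: it was -0.24 with a minimum mean of 50, -0.47 without wild-type replicate 1 and -0.52 without Trem1-/- replicate 2. Ccl4, an inflammatory chemokine gene, had 207, 182 and 145 against 104, 110 and 72.2 (-0.91 ± 0.43). Ccl3, encoding a related chemokine, had 318, 195 and 309 against 191, 178 and 170 (-0.57 ± 0.35). Ccl5 had 27.8, 22.6 and 22.5 against 16.8, 0 and 15.04. Monocyte markers moved the same way, with 15 of 16 below 0 and a median of -0.54, although their summed levels overlapped between groups, and 12 of 19 neutrophil markers were below 0. Their part in the inflammatory differences was not tested.

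Type I interferon response genes are induced through the factor ISGF3, which binds the interferon-stimulated response element. In the 250 bases before the RefSeq start (GRCm38.p6), a pair of GAAA separated by any 2 bases, on either strand, was found in 14 of 27 interferon genes with a promoter in the table, 51.9%, against 3.46% of 27025 genes. The promoters of the 2 interferon genes with the smallest p among those without overlap are shown, 5' to 3' on the strand of the gene, with matches in capitals, at chr19:34607707-34607956 (plus strand) and chr5:120907526-120907775 (minus strand).
Ifit3b: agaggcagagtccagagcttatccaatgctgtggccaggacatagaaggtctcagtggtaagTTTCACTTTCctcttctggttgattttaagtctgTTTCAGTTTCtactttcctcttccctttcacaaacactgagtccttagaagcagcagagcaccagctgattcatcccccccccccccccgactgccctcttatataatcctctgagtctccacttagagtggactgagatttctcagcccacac
Oas1a: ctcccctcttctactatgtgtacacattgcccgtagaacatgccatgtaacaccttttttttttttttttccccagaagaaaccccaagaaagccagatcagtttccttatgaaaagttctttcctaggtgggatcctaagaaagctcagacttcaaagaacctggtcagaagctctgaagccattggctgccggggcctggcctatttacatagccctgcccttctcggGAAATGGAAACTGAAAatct
The Oas1a matches overlap each other. Trem1 had no match in the same window, and neither had Ifitm3, the next interferon gene by p among those without overlap.

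Of 37 interferon genes, 29 were below 0, 10 were lower without overlap (against 6.25% of all genes) and 1 was higher. The median was -0.25, and it was -0.16 without wild-type replicate 3 and -0.14 without Trem1-/- replicate 2. By library, the median deviation of interferon genes was 0.07, -0.16 and 0.08 in wild type and -0.19, -0.22 and -0.23 in the libraries labelled Trem1-/-. That of monocyte markers was 0.34, -0.56 and 0.13 against -0.36, -0.66 and -0.59, and their part in the interferon difference was not tested. Ifit3b, an interferon-induced protein with tetratricopeptide repeats, had 123, 112 and 116 normalized counts in wild type against 93.4, 12.4 and 24.1 (-1.90 ± 0.57, adjusted p = 0.367). Wild type was tight, and Trem1-/- replicate 1 was nearer to wild type than to its own group. Ifit3b has near-identical family members, and how the authors assigned shared reads is not given in the sources used here. Oas1a, an enzyme that activates the antiviral ribonuclease RNase L, had 279, 182 and 212 against 89.6, 93.3 and 132 (-1.09 ± 0.36). Ifitm3, a membrane protein that blocks viral entry, had 1118, 431 and 761 against 311, 409 and 250 (-1.17 ± 0.41). The 14 genes with the element had a median of -0.36 and the 13 without it -0.21. An NF-kB motif was found in 5 of 23 inflammatory genes with a promoter. Inflammatory genes with that motif had a median of -0.21 and those without it -0.20.

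Antigen presentation genes followed the direction of most abundant genes. Among 20 genes of MHC class I and the immunoproteasome, 17 were below 0 and 1, H2-T23, was lower without overlap, with a median of -0.17. H2-T23 is a nonclassical class I gene and had 1703, 1744 and 1932 against 1516, 1671 and 1315 (-0.26 ± 0.12). Among 16 genes of class II and co-stimulation, 12 were below 0 and 2 were lower without overlap (against 6.25% of all genes). The invariant chain gene Cd74 had 2092, 2306 and 2218 against 1876, 1919 and 1327 (-0.39 ± 0.22, or -0.22 without Trem1-/- replicate 3) and H2-Oa, a modulator of peptide loading, 161, 220 and 137 against 81.2, 83.4 and 119 (-0.86 ± 0.31). MHC genes are a family of close paralogs, so reads could be split among them.

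Complement and phagocytic receptor genes were mostly below 0. So were 69.9% of protein-coding genes with means from 1000 to 5000, of which 11.97% were lower without overlap. For means of at least 5000 those shares were 79.4% and 20.1%. In the complement list 15 of 17 tested genes were below 0 and 3 were lower without overlap, with a median of -0.27 that was -0.17 under quantile normalization. C3ar1, the receptor for C3a, had 3924, 3895 and 4504 against 3567, 3334 and 3294 (-0.27 ± 0.11). C4b, a component of the classical and lectin pathways, had 846, 567 and 788 against 469, 513 and 155 (-1.11 ± 0.46), or -0.56 without Trem1-/- replicate 3. Among 21 Fc, scavenger and apoptotic-cell receptor genes 17 were below 0 and 4 were lower without overlap. Pros1, the bridging ligand protein S for TAM receptors, had 5338, 4569 and 4916 against 3994, 4051 and 3861 (-0.31 ± 0.09), and the inhibitory Fc receptor gene Fcgr2b 5738, 3980 and 4723 against 3864, 3630 and 3909 (-0.33 ± 0.12). Gas6, the other TAM ligand, had 3402, 2807 and 2399 against 2088, 2320 and 2341 (-0.34 ± 0.14). Without wild-type replicate 1 Fcgr2b was at -0.19 and Gas6 at -0.21.

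Lysosomal genes showed small, even differences. Of 38 genes, 34 were below 0, 6 were lower without overlap and 0 were higher, with a median of -0.18. The median was -0.05 under quantile normalization, which forces all libraries to 1 distribution, and -0.11 without Trem1-/- replicate 2. Psap, the precursor of the saposins, had 36867, 32254 and 36568 against 30149, 25082 and 28086 (-0.34 ± 0.09). Grn, progranulin, had 20647, 18842 and 20719 against 17745, 14998 and 15952 (-0.31 ± 0.09). The glycoprotein-degrading Man2b1 (-0.32 ± 0.10), the asparaginyl protease Lgmn (-0.22 ± 0.08) and the carboxypeptidase Ctsa (-0.18 ± 0.08) were also without overlap. Under quantile normalization Lgmn was at -0.0060 and Ctsa at -0.061, and without wild-type replicate 1 Lgmn was at -0.13. These are abundant genes, and among protein-coding genes with means of at least 5000 the share lower without overlap was 20.1%. In the list of lipid transport and droplet genes 19 of 23 tested were below 0 and 4 were lower without overlap, among them Abca1, the cholesterol exporter, with 16916, 15940 and 15394 against 13566, 13414 and 14749.

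**Figure D4:**
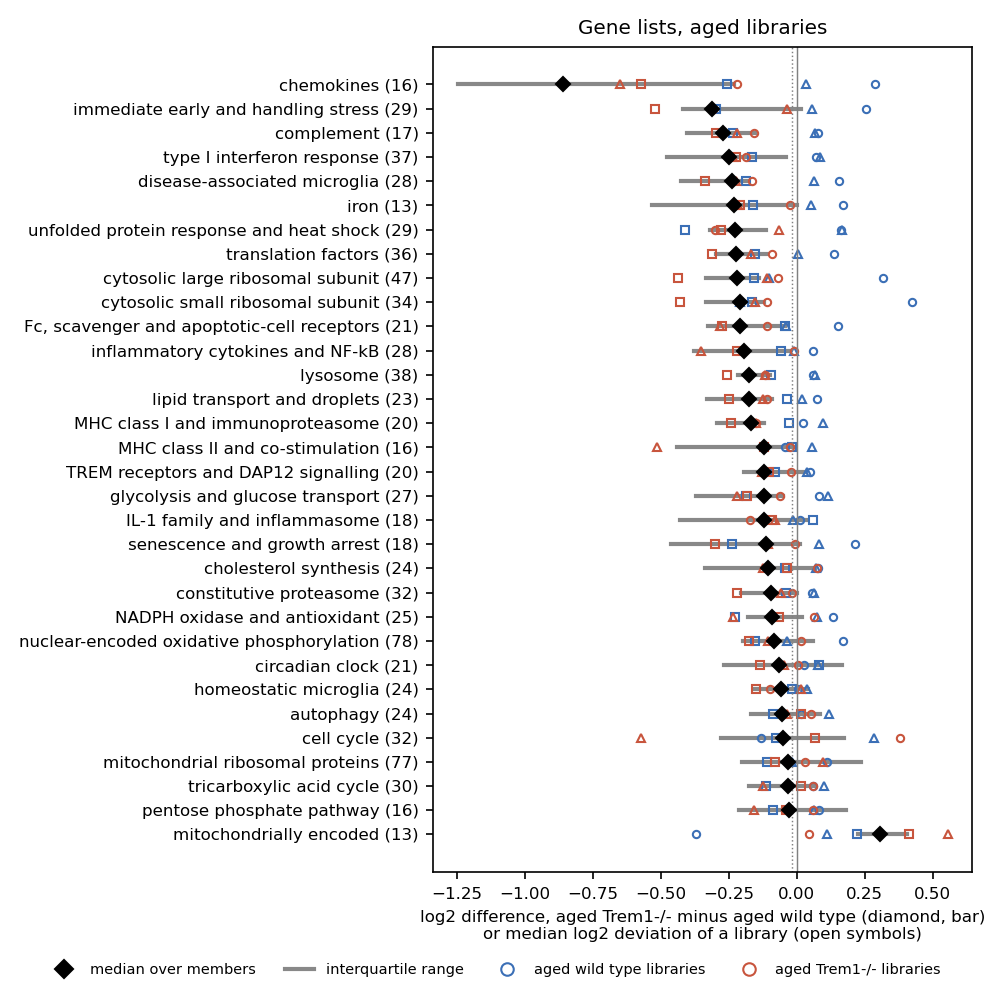
Log2 difference, aged libraries labelled Trem1-/- minus aged wild type, for 32 gene lists: the median over tested members (diamond), the interquartile range (bar) and the median deviation of each library from the wild-type mean (open symbols, replicates 1, 2 and 3 as circle, square and triangle). Numbers in brackets are genes tested, the solid line marks 0 and the dotted line the median over all genes, -0.02. Medians run from -0.86 for chemokines to 0.31 for mitochondrially encoded genes, and libraries of the groups often interleave.

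TREM1 has been studied for its link to energy metabolism in myeloid cells, and the metabolic lists were therefore examined. Of 27 genes of glycolysis and glucose transport, 21 were below 0, 3 were lower without overlap and 0 were higher. Their median of -0.12 became -0.04 under quantile normalization, -0.26 without wild-type replicate 2 and -0.22 without Trem1-/- replicate 1. Lower without overlap were 6.25% of all genes and 11.97% of protein-coding genes with means from 1000 to 5000, of which 69.9% were below 0. For means of at least 5000 the shares were 20.1% and 79.4%. Slc2a1, the glucose transporter GLUT1, had 977, 754 and 972 against 699, 683 and 748 (-0.33 ± 0.16), and Slc2a6 had 174, 199 and 173 against 130, 162 and 120. Hk2, hexokinase 2, had 9420, 7124 and 7943 against 7178, 6835 and 6960 (-0.21 ± 0.10), and the pyruvate kinase gene Pkm differed by -0.18 ± 0.11, both with overlapping groups. The pentose phosphate list, which makes NADPH and ribose phosphate, had 9 of 16 below 0 and 1 without overlap in each direction. Tkt, transketolase, had 3675, 2898 and 3958 against 4012, 2942 and 2429 (-0.19 ± 0.16), and Rpia, ribose phosphate isomerase, 357, 229 and 302 against 429, 292 and 319 (0.23 ± 0.24). In both the groups overlapped widely. Of 30 genes of the tricarboxylic acid cycle, 19 were below 0 and 0 separated the groups in either direction.

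The medians of nuclear and mitochondrial genes of oxidative phosphorylation lay on opposite sides of 0. Of 78 nuclear-encoded genes, 52 were below 0 and 26 above. Lower without overlap were 6 of them (against 6.25% of all genes), and 0 were higher. Their median was -0.08, turned to 0.03 without wild-type replicate 1, and was -0.19 without wild-type replicate 2, -0.14 without Trem1-/- replicate 1 and -0.03 without Trem1-/- replicate 2. Atp5g2, a subunit of the c ring of ATP synthase, had 122, 95.3 and 128 against 74.7, 48.5 and 54.2 (-0.96 ± 0.38). Every library labelled Trem1-/- was below every wild-type library for this gene. Of 13 mitochondrially encoded genes 11 were above 0, with a median of 0.31, and 0 separated the groups. That median was 0.17 without wild-type replicate 1, 0.48 without Trem1-/- replicate 1 and 0.20 without Trem1-/- replicate 3. mt-Co1, cytochrome c oxidase subunit 1, had 13835, 20575 and 19321 against 18206, 25617 and 27464 (0.41 ± 0.23). The mitochondrially encoded share of counts was 0.367% to 0.561% in wild type and 0.497% to 0.740% in the libraries labelled Trem1-/-.

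Cytosolic ribosomal protein genes were mostly below 0, and wild-type replicate 1 weighed on the size. For the large subunit this held for 44 of 47 genes tested, with 5 lower without overlap (against 6.25% of all genes), 1 higher and a median of -0.22. For the small subunit it held for 31 of 34, with 2 lower without overlap and a median of -0.21. Without wild-type replicate 1 these medians were -0.08 and 0.04. Without Trem1-/- replicate 2 the large-subunit median was -0.10, under quantile normalization it was -0.14, and without wild-type replicate 2 the small-subunit median was -0.35. The median deviation of small-subunit genes was 0.42 in wild-type replicate 1 against -0.17 and -0.21 in replicates 2 and 3, and -0.11, -0.43 and -0.15 in the libraries labelled Trem1-/-. Rpl4 had 6097, 6212 and 6433 against 5726, 4663 and 5224 (-0.27 ± 0.09), with wild-type replicate 1 the lowest of its group. Many ribosomal protein genes have processed pseudogenes with near-identical sequence, so their reads can be split. Among 36 translation factor genes 33 were below 0, 5 were lower without overlap and 1 was higher. Of protein-coding genes with means from 1000 to 5000, 69.9% were below 0 and 11.97% were lower without overlap. For means of at least 5000 those shares were 79.4% and 20.1%. Eif3b, a scaffold subunit of the initiation factor eIF3, had 2894, 2228 and 2269 against 2186, 1744 and 1596 (-0.42 ± 0.13). The helicase gene Eif4a2 was higher, with 2452, 2522 and 2860 against 2974, 3193 and 3245 (0.27 ± 0.10).

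Stress and proliferation lists held few genes that separated the groups. Of 29 immediate early and handling-stress genes, 21 were below 0 and 3 were lower without overlap (against 6.25% of all genes). Their median was -0.31, or -0.10 without wild-type replicate 1 and -0.19 without Trem1-/- replicate 2. Nr4a1, an activity-induced nuclear receptor, had 286, 423 and 193 against 187, 141 and 116 (-0.97 ± 0.62). Of 29 genes of the unfolded protein response and heat shock 24 were below 0 and 1 was lower without overlap. In the 32-gene cell-cycle list 18 were below 0 and 0 separated the groups. Border macrophage genes differed among themselves: Ms4a7 had 1.11, 5.49 and 13.7 against 21.5, 36.1 and 64.7, while Siglec1 had 151, 165 and 115 against 103, 88.4 and 40.6. Summed levels of the listed border macrophage markers were 12787 to 16722 in wild type and 13161 to 13694 in the libraries labelled Trem1-/-.

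Whether the genotype difference depended on age was tested with the interaction term, the aged difference minus the young difference. By limma 408 of 16086 genes passed an adjusted p of 0.05 (2.54%), 344 with the aged difference below the young one (2.14%) and 64 with it above (0.398%). Without trend and robust fitting 5 genes passed (P2ry2, Ifitm2, Itga1, Prok2 and Tagln2, named after their values were seen). Most of the limma calls thus depend on those fitting options. The edgeR quasi-likelihood test on recovered reads called 402 genes for the interaction, and whether they are the same genes was not tested. In the 344 genes the libraries labelled Trem1-/- were higher than wild type in all young comparisons, with a median difference of 1.35. In aged libraries 335 of the 344 were below 0, with a median of -0.41, and in 114 the aged groups did not overlap in that direction. The aged difference was smaller in size than the young one in 302. In the 64 genes the medians were -0.53 in young and 0.57 in aged libraries. These medians describe genes selected on the same contrast. Leaving out single libraries gave 197 to 790 genes, so the count rests on particular libraries. It was 790 without aged wild-type replicate 2, 197 without aged wild-type replicate 3, 235 without aged wild-type replicate 1, 221 and 251 without aged Trem1-/- replicates 2 and 3, 248 without young wild-type replicate 2, and 251 and 203 without young Trem1-/- replicates 2 and 3.

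Trem1 was among the 408. It had 25.2, 7.65 and 8.74 normalized counts in young wild type and 89.4, 99.8 and 89.5 in the young libraries labelled Trem1-/-, a difference of 2.85 against the direction of the label. Whether the labels are right, or whether the allele leaves a transcript, was not tested. The signs of the young and aged differences and of the interaction rest on the labels. With the aged difference of -0.55 the interaction was -3.40 ± 0.64 (adjusted p = 0.0043). Without trend and robust fitting the adjusted p was 0.065 for Trem1, 0.061 for S100a11 and Sorl1 and 0.064 for Slfn2, so these 4 calls were lost. Ifitm2, an interferon-induced transmembrane protein gene, had 29.9, 19.7 and 25.3 in young wild type and 214, 301 and 285 in young Trem1-/-. In aged libraries it had 573, 237 and 318 against 162, 172 and 272, and the interaction was -4.21 ± 0.49 (adjusted p = 5.7e-05). Aged wild type was thus in or above the range of young Trem1-/-, while the aged groups overlapped. S100a11, a calcium-binding protein, had aged values of 2280, 1492 and 2311 against 1806, 1483 and 982 (interaction -2.85 ± 0.31), and Tagln2, an actin-binding protein, 918, 582 and 830 against 542, 488 and 560 (-2.41 ± 0.27). Sorl1, a sorting receptor for the amyloid precursor protein, had 10014, 6613 and 9457 against 6945, 6493 and 6005 (-1.83 ± 0.20). Slfn2, of the interferon-inducible Schlafen family, had 2670, 2079 and 2944 against 2231, 1984 and 2392 (-1.75 ± 0.21). An interaction below 0 past the threshold was found for 2.14% of all genes, and 10 lists had 4 or more such members. These were 10 of 37 interferon genes, 5 of 27 glycolysis genes, 5 of 16 monocyte markers, 4 of 17 complement genes and 4 of 21 Fc and scavenger receptor genes. The others were 4 of 25 antioxidant genes, 4 of 29 genes each of the unfolded protein response and immediate early lists, 4 of 36 translation factors and 4 of 47 large-subunit ribosomal proteins. No member of these 10 lists had an interaction above 0 past the threshold. A cut at 4 favours long lists. Below it were, among others, 3 of 18 interleukin-1 family genes, 3 of 19 neutrophil markers and 3 of 23 lipid transport genes. Monocyte markers had a median difference of 2.69 in the young libraries and -0.54 in the aged ones, and neutrophil markers 1.68 and -0.15. The part of either in the interaction was not tested.

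**Figure D5:**
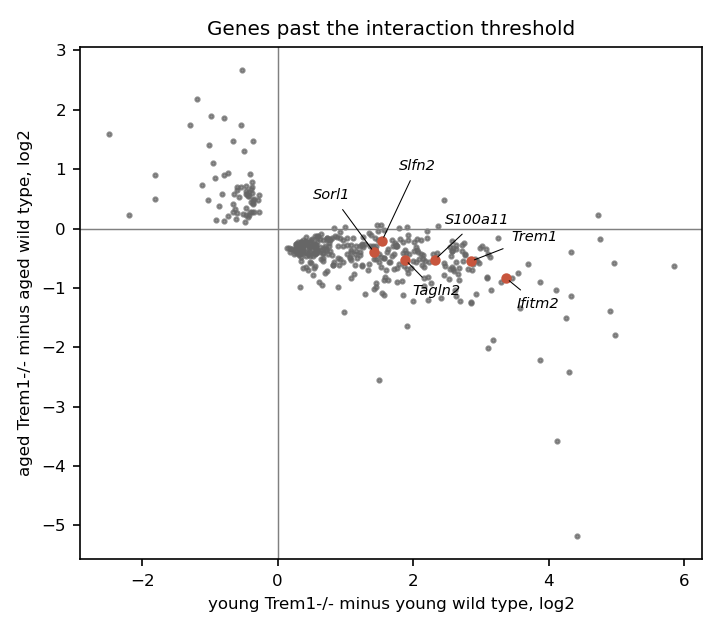
Log2 difference of libraries labelled Trem1-/- minus wild type in young (horizontal axis) and in aged (vertical axis) microglia, for the 408 genes past the interaction threshold (points), with 6 named genes marked. The 344 genes with a negative interaction have young differences above 0 and a median aged difference of -0.41, and the 64 with a positive one lie at upper left.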

How the data were processed

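RNA was extracted with a Qiagen RNeasy kit and libraries were made with a NEBNext Ultra RNA kit, per the labels' protocols. The submitters' processing notes name fastp, HISAT2 2.0.5, featureCounts 1.5.0-p3, DESeq2 1.20.0 and GRCm38. The annotation release, strandedness and use of reads that match several places are not given in the sources used here. The deposited per-library values are a signal, gene counts divided by a size factor. After division by what 1 read is worth, 100% of values were whole to within 0.05 read, and the recovered reads gave depths and the inputs of edgeR 4.0.16 and DESeq2 1.42.0 as alternatives. The authors' deposited fold changes and p-values were not used.

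Values were transformed to log2(normalized count + 1) and fitted in limma 3.58.1 under R 4.3.3, using trend and robust, with the 4 groups of 12 libraries in 1 fit, 8 residual degrees of freedom and Benjamini-Hochberg adjustment. Sharing the spread among groups assumes that they vary alike. An exact permutation test of 3 against 3 cannot go below 0.1 and was not used. The test was checked on simulated data. Positions and gene types were taken from GENCODE M21, in which 53749 of 54532 symbols were found, and promoters came from RefSeq (GRCm38.p6). A floor of 3 reads was 2.06 to 4.51 normalized counts and covers counting error only, since no molecular identifiers are named in the labels. No aged libraries were duplicates, with chi-square per degree of freedom from 18.2 to 50.2.

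The comparison, gene lists and tests were chosen with earlier results of these data known. Named genes were Trem1, the 8 smallest p in each direction with a mean of at least 50 in the higher group, up to 6 per direction called by DESeq2, up to 3 (for some lists 5) non-overlapping list members, key genes, and the 5 smallest p of the interaction. This rule left out predicted genes, and some genes that it names are not reported here. Alternatives were normalization, pseudocount, filter, tool, a fit of the 6 aged libraries alone, a replicate block and leaving out each library.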

Additional observations from a re-analysis of the deposited data

Results flagged for a closer look

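For 408 of 16086 genes (2.54%) the difference between labelled genotypes differed between young and aged microglia (limma interaction term, adjusted p under 0.05). The 5 with the smallest p were Tagln2 at -2.41, Ifitm2 at -4.21, S100a11 at -2.85, Sorl1 at -1.83 and Slfn2 at -1.75 on the log2 scale. In each, the young difference was above 0 and the aged difference below 0, but the aged groups overlapped for all except Tagln2. Without trend and robust fitting 5 genes passed the interaction threshold, and S100a11, Sorl1 and Slfn2 did not. The signs rest on the labels, whose correctness was not tested.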

How the results depend on the processing

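The aged comparison gave 0 genes under 11 of 17 alternatives. It gave 3 without a filter on low values (Rrbp1, Msn and Gm46411), 1 without trend and robust fitting (Khdc3), 30 with DESeq2 and 0 to 15 when 1 library was left out. The 5 without aged Trem1-/- replicate 1 were Gm44860, Gm5846, Myh9, Arhgap22 and Ing3. These names were taken after their values were seen. Replicate numbers did not pair the libraries, with residual correlations of 0.03, 0.07 and -0.05 between libraries of the same number, and not every library correlated best with its own number. A replicate block gave 3 genes (Irf2bpl, Malat1 and Gm46411) and 557 for the interaction. The interaction count of 408 was 5 without trend and robust fitting (P2ry2, Ifitm2, Itga1, Prok2 and Tagln2). It was 402 with edgeR, 776 with DESeq2 and 197 to 790 with 1 library left out.

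The Trem1 difference stayed uncalled and below 0 under all 17 alternatives. Differences near 0 changed sign without being called. Leaving out 1 library, Tyrobp ranged from -0.12 to 0.16, Trem2 from -0.065 to 0.17, P2ry12 from -0.087 to 0.092 and Tmem119 from -0.20 to 0.046. With edgeR, Tyrobp was at -0.0090 and P2ry12 at -0.0058. Under quantile normalization, which sets a gene's value by its rank in each library, Tmem119 was at 0.015, Vav1 at 0.010 and Csf1r at 0. For these shifts the cause was not tested. Of 44 list medians, 28 kept their sign under every alternative. Of 84 single genes, 34 moved by over 1.5 times when 1 aged library was left out. The shallowest library held 8600878 reads, and how far depth bears on the calls was not tested.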
